A study of Mus musculus with 6 samples.

Results

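The red cell program of the E13.5 mouse heart was followed through 9 genes, chosen by name, of the 46983 genes listed in the deposited tables. They are the embryonic globin genes Hba-x, Hbb-bh1 and Hbb-y, the adult-type globin genes Hba-a1, Hba-a2, Hbb-bs and Hbb-bt, and the red cell genes Alas2 and Slc4a1. All 9 were found in the tables, and all 9 passed the filter on low counts. RNA was sequenced from whole hearts, 1 heart per library. The 3 mutant hearts (replicates 1, 5 and 10) came from embryos that carried Tnnt2 Cre and both floxed Wt1 alleles. The 3 control hearts (replicates 2, 3 and 5) are labelled wild type, and the study's methods give them as Cre-negative embryos that also carried both floxed Wt1 alleles. The strain of all 6 embryos is given as C57BL/6 x DBA/2. The Tnnt2 promoter drives Cre in the cardiomyocyte lineage, and the methods report that a part of the epicardium is recombined as well.

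Hemoglobin is built from alpha-like and beta-like globin chains around heme. In the mouse, the first red cells come from the yolk sac, circulate as nucleated primitive cells and make the embryonic chains together with adult-type alpha chains. As primitive cells mature, Hbb-bh1 gives way to Hbb-y, and Hba-x gives way to the adult-type alpha genes. Definitive red cells from the fetal liver make the adult-type chains and join the circulation from about this stage on. A heart that is taken whole holds the blood in its chambers and vessels, so these transcripts are read here as those of red cells rather than of heart muscle. The source of these transcripts in each heart was not tested. In RNA from a whole heart, fewer red cells and less RNA per red cell cannot be told apart.

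The globin genes lie in clusters, with the alpha-like genes on chromosome 11 and the beta-like genes on chromosome 7. The 150 bases before the RefSeq start of 5 of them (GRCm38.p6) are shown because the ratios given further on compare these genes. Capitals mark matches on either strand to 4 kinds of motif. The first is CCNCNCCC, a loose form of the CACCC type bound by factors such as KLF1. It also takes stretches without CACCC and misses some with it. The second is CCAAT, a general promoter element. Another is GATAA, the core read by GATA factors. The last is the TATA type, searched as ATATAA and also in the form CATAAA.
Hba-x (chr11:32276450-32276599, plus strand): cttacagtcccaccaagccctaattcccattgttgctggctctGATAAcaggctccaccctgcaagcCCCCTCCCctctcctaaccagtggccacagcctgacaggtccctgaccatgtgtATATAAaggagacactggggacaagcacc
Hba-a1 (chr11:32283522-32283671, plus strand): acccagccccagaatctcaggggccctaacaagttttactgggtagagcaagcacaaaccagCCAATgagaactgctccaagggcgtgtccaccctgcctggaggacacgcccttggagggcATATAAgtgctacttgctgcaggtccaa
Hbb-y (chr7:103853208-103853357, minus strand): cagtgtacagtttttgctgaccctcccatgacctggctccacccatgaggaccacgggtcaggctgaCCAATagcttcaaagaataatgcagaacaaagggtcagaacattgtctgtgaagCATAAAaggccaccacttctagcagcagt
Hbb-bs (chr7:103827929-103828078, minus strand): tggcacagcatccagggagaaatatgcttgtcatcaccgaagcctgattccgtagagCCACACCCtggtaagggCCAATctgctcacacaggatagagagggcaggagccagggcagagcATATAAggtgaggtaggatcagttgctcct
Hbb-bt (chr7:103813924-103814073, minus strand): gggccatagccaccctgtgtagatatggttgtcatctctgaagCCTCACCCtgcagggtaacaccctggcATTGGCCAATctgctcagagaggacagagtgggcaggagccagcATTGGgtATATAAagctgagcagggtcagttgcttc

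A TATA-type match began between 28 and 31 bases before the start in each of these promoters and in that of Hba-a2, while 18.0% of all 32851 promoters in the table held one anywhere in the 250 bases searched. A match to CCNCNCCC was found in Hba-x, Hbb-bs and Hbb-bt (45.9% of all promoters). CCAAT was found in each of these promoters but that of Hba-x (33.8% of all promoters), and GATAA in each of them within 250 bases (22.6% of all promoters). The letters CACCC also stand unmarked in the bases printed for Hba-x, Hba-a1, Hbb-y and Hbb-bt, where CCNCNCCC misses them. A promoter without a marked match of this type is thus not one without CACCC. The matches are letters only and were not tested as binding sites. GENCODE M21 places the start of several of these genes farther upstream than RefSeq does, so a part of these bases lies in its first exons. Hbb-bh1 and Slc4a1 had no entry in the table.

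The adult-type genes come as near-identical copies, and this sets what a count of uniquely mapped reads can say. Over their 297 overlapping promoter bases, Hba-a1 and Hba-a2 did not differ. Over the 429 bases of the coding sequence they differed at 1 base, C381T, counted from the first base of the start codon, with the base of Hba-a1 first. The 30 coding bases around it are shown with this base in capitals.
Hba-a1, coding bases 367 to 396: catgcctctctggaCaaattccttgcctct
Hba-a2, coding bases 367 to 396: catgcctctctggaTaaattccttgcctct

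Hbb-bs and Hbb-bt also differed at 1 of 444 coding bases, C417T with the base of Hbb-bs first, and the change is silent in both pairs of copies.
Hbb-bs, coding bases 403 to 432: gtggctggagtggcCgctgccctggctcac
Hbb-bt, coding bases 403 to 432: gtggctggagtggcTgctgccctggctcac

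Of all stretches of 150 bases, the length of a read, 65.7% of those in the annotated Hba-a2 transcript also stood in that of Hba-a1, and 50.7% of those in Hbb-bt stood in Hbb-bs. The methods give paired reads, while these shares treat each read alone, and the share for pairs was not computed. Because the copies share so much sequence, their single levels are uncertain.

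The total counts lay between 44244665 (wild type replicate 5) and 56373393 (wild type replicate 3), and the 9 genes took between 1.25% and 4.04% of them. Wild type replicate 5 stood farthest apart by gene length. Across 11795 genes, Spearman's rho of a gene's deviation with its length was −0.556 in this heart. In the other direction it was 0.464 in mutant replicate 5, 0.383 in wild type replicate 2 and 0.316 in wild type replicate 3. It was −0.00619 in mutant replicate 1 and −0.0622 in mutant replicate 10. Wild type replicate 3 stood apart by hepatocyte markers, which summed to 850.0 CPM (counts scaled to a common library size), against 3.62 to 24.3 in the others. Cardiomyocyte markers summed to 20644 CPM or more in every heart, and Tnnt2 was present in all. Wt1 was at 30.9 ± 10.1 CPM (wild type) and at 28.9 ± 9.76 CPM (mutant) (SD, n = 3 each), and a count over the whole gene does not separate deleted from intact alleles. Levels below are the deposited FPKM, a count divided by gene length and by the heart's total count. Nothing in the labels says that the hearts of a group came from separate litters. The p-values rest on the variation between these hearts and may not extend to other litters.

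**Figure D1:**
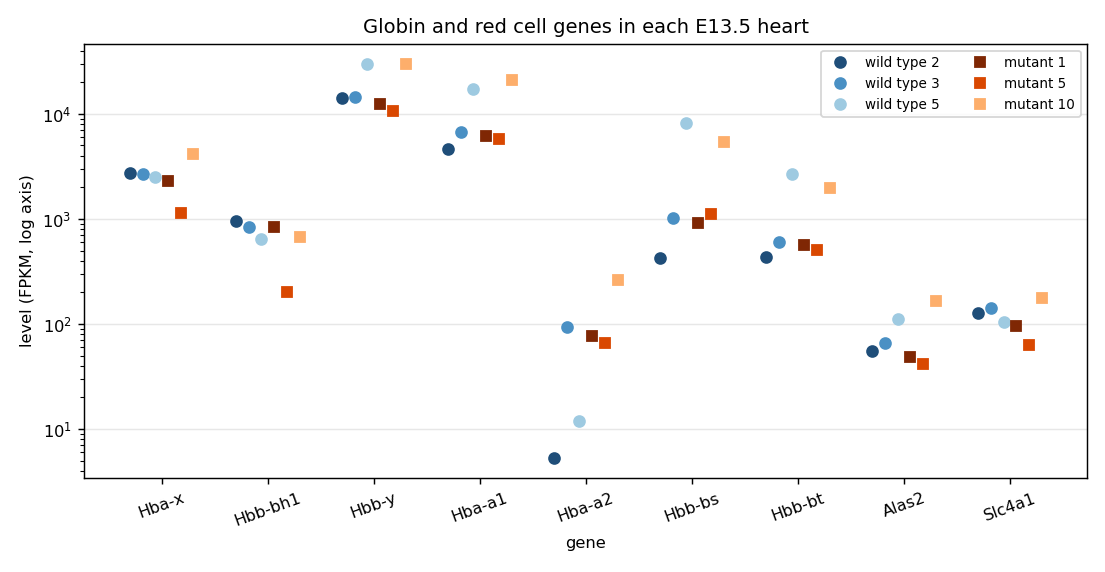
Level of each of the 9 genes (x axis) in FPKM on a log axis, with 1 point per heart, circles for the 3 wild type and squares for the 3 mutant hearts. For Hbb-y, Hba-a1, Hbb-bs, Hbb-bt and Alas2 the highest points are wild type replicate 5 and mutant replicate 10, and the groups overlap for every gene.

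Hbb-y, the late embryonic beta-like chain (ENSMUSG00000052187, chromosome 7 from 103851749 to 103853216), was the most abundant of the 9 per unit of length in every heart. It stood at 14135, 14409.8 and 30009.9 FPKM in wild type replicates 2, 3 and 5, and at 12498, 10604 and 29571 FPKM in mutant replicates 1, 5 and 10. One heart of each genotype was thus far above the other two, and the groups overlapped. Between mutant and wild type hearts the log2 fold change came to −0.11 with a standard error of 0.46 and an adjusted p of 0.990 from edgeR.

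Hbb-bh1, the early embryonic beta-like chain (ENSMUSG00000052217, chromosome 7 from 103841637 to 103843164), had 949, 834 and 640.4 FPKM in wild type replicates 2, 3 and 5 and 836, 201.1 and 670.3 FPKM in mutant replicates 1, 5 and 10. Like Hbb-y it was lowest in mutant replicate 5, but it was not raised in the hearts with most Hbb-y, and the groups overlapped. Without mutant replicate 5 its log2 fold change was −0.07. For mutant over wild type, edgeR gave −0.47 on the log2 scale, with a standard error of 0.44 and an adjusted p of 0.985.

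Hba-x, the embryonic alpha-like chain (ENSMUSG00000055609, chromosome 11 from 32276400 to 32278116), had 2741, 2675 and 2483 FPKM in wild type replicates 2, 3 and 5, and 2293, 1132 and 4132 FPKM in mutant replicates 1, 5 and 10. The wild type hearts lay close together, while the mutant hearts reached both below and above them. Mutant over wild type, this came to −0.01 on the log2 scale (standard error 0.40) at an adjusted p of 0.999 in edgeR.

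Hba-a1, an adult-type alpha gene (ENSMUSG00000069919, chromosome 11 from 32283511 to 32284465), stood at 4588.5, 6790.3 and 17169 FPKM in wild type replicates 2, 3 and 5. In mutant replicates 1, 5 and 10 it stood at 6117, 5746 and 20992 FPKM. The high hearts were again wild type replicate 5 and mutant replicate 10. In edgeR's fit it differed by 0.25 on the log2 scale, mutant over wild type, with 0.63 as standard error and an adjusted p of 0.990, with −0.69 when mutant replicate 10 was left out and 1.01 when wild type replicate 5 was.

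Hba-a2, the second adult-type alpha gene (ENSMUSG00000069917, chromosome 11 from 32296489 to 32297298), was far lower, at 5.26, 93.8 and 11.9 FPKM in wild type replicates 2, 3 and 5 and 76.5, 66.3 and 264 FPKM in mutant replicates 1, 5 and 10. These values rest on 153, 2770 and 275 counts in the wild type and 2046, 1813 and 7360 counts in the mutant hearts. Wild type replicates 2 and 5 lay below every mutant heart, and wild type replicate 3 lay among them. The log2 fold change of 1.94 had a standard error of 1.003 (adjusted p = 0.931), and its 95% confidence interval ran from −0.36 to 4.25. Leaving out wild type replicate 3 gave 4.05, and leaving out mutant replicate 10 gave 0.95, so a single heart decides its size.

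Hbb-bs, the more variable adult-type beta gene (ENSMUSG00000052305, chromosome 7 from 103826534 to 103828096), had 428, 1012 and 8112 FPKM in wild type replicates 2, 3 and 5. It had 906, 1113 and 5398 FPKM in mutant replicates 1, 5 and 10. Its highest heart was 19.3-fold above its lowest on the CPM scale, and both were wild type. Between mutant and wild type hearts the log2 fold change came to −0.31 with a standard error of 1.08 and an adjusted p of 0.990 from edgeR, with 1.86 when wild type replicate 5 was left out and −1.67 when mutant replicate 10 was.

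Hbb-bt, its neighbor (ENSMUSG00000073940, chromosome 7 from 103812524 to 103813996), had 434, 604 and 2681 FPKM in wild type replicates 2, 3 and 5 and 559.9, 509.8 and 1964 FPKM in mutant replicates 1, 5 and 10. It followed Hbb-bs with a narrower spread, 6.30-fold from the lowest to the highest heart in CPM. For mutant over wild type, edgeR gave −0.25 on the log2 scale, with a standard error of 0.77 and an adjusted p of 0.990, and 1.03 without wild type replicate 5. With the counts of the copies summed, the log2 fold change was −0.29 for Hbb-bs with Hbb-bt and 0.26 for Hba-a1 with Hba-a2.

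Alas2, the red cell enzyme of the first step of heme synthesis (ENSMUSG00000025270, chromosome X from 150547375 to 150570638), had 55.5, 65.8 and 112 FPKM in wild type replicates 2, 3 and 5. In mutant replicates 1, 5 and 10 it had 48.9, 41.6 and 166 FPKM, with the same pair of high hearts as Hbb-y. Mutant over wild type, this came to 0.19 on the log2 scale (standard error 0.54) at an adjusted p of 0.990 in edgeR, and exons of opposite-strand genes cover 15.5% of its exon bases.

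Slc4a1, the anion exchanger of the red cell membrane (ENSMUSG00000006574, chromosome 11 from 102348824 to 102366203), had 127.5, 140.5 and 105 FPKM in wild type replicates 2, 3 and 5 and 95.3, 62.8 and 178 FPKM in mutant replicates 1, 5 and 10. It ordered the hearts differently from Alas2, since wild type replicate 5 was its lowest wild type heart. In edgeR's fit it differed by −0.10 on the log2 scale, mutant over wild type, with 0.35 as standard error and an adjusted p of 0.990.

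In the quasi-likelihood test of edgeR, 0 of these 9 genes passed at an adjusted p of 0.05, as did 0.00% of the 17473 genes tested. At an unadjusted p of 0.05, 0 of the 9 passed, against 5.73% of all genes (3.14% higher and 2.59% lower in the mutant). DESeq2 called 0 of the 8 members to which it gave a p, against 0.690% of the 19282 genes with an adjusted p, and it gave none for Hba-a2. For 0 of the 9 did the groups separate, against 11.2% of all genes tested (6.61% with the mutant hearts higher and 4.59% with them lower). With any 1 heart left out, 0 of the 9 passed either. The 95% confidence intervals remained wide. For Hbb-y the interval ran from −1.17 to 0.95 on the log2 scale, and for Hbb-bs from −2.79 to 2.16. With 3 hearts against 3, changes of any size within these intervals thus remain possible for these genes.

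**Figure D2:**
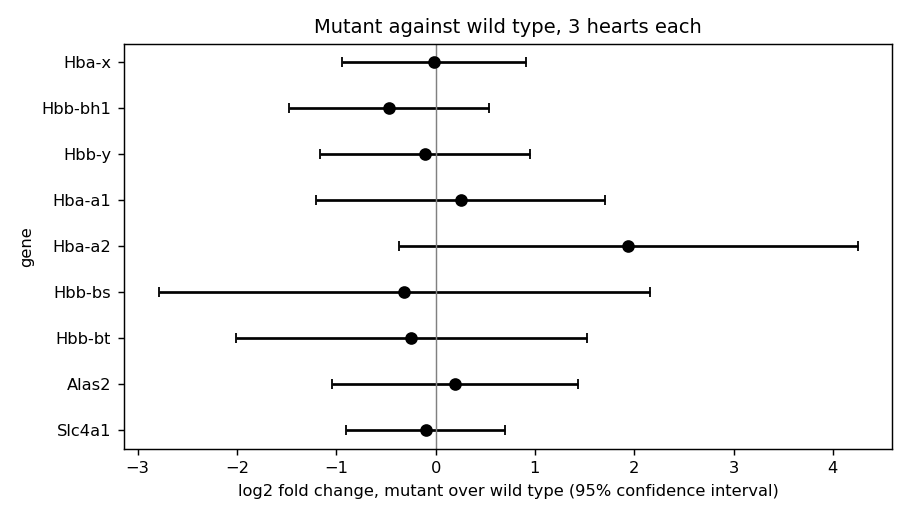
Log2 fold change of mutant over wild type (x axis) for each gene (y axis) with its 95% confidence interval from edgeR's quasi-likelihood fit, 3 hearts per group. Every interval crosses 0, from the narrowest in Slc4a1 (−0.90 to 0.70) to the widest in Hbb-bs (−2.79 to 2.16).

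The levels of these genes differed widely between hearts. The ranges given here include any difference between the genotypes. On the log2 CPM scale, the range over the 6 hearts was 5.73 in Hba-a2, 4.27 in Hbb-bs, 2.65 in Hbb-bt, 2.29 in Hba-a1 and 2.22 in Hbb-bh1, against a median of 0.61 over all genes tested. Only 0.475% of the genes tested had a wider range than Hbb-bs, and 2.84% had a wider one than Hbb-bt. The narrowest ranges were those of Hbb-y (1.56, exceeded by 12.03% of genes) and Slc4a1 (1.59, exceeded by 11.6%). The biological coefficient of variation was 0.846 for Hbb-bs and 0.304 for Slc4a1, where the common value was 0.209.

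A ratio of genes within a heart does not depend on its library size. The uncertain counts of the copies can still enter it. So can the trends by gene length, which were strongest in wild type replicate 5 and, in the other direction, in mutant replicate 5. The summed FPKM of Hbb-bh1 and Hbb-y over that of Hbb-bs and Hbb-bt was 17.5, 9.44 and 2.84 in wild type replicates 2, 3 and 5, and 9.10, 6.66 and 4.11 in mutant replicates 1, 5 and 10. Embryonic transcripts thus outweighed adult-type ones on the beta-like side in every heart, and all mutant hearts lay within the range of the wild type hearts. On the alpha-like side, Hba-x over Hba-a1 and Hba-a2 was 0.597, 0.389 and 0.145 in wild type and 0.370, 0.195 and 0.194 in mutant hearts, in the same order. Here the adult-type transcripts outweighed the embryonic one in every heart, and the mutant hearts again lay within the wild type range.

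**Figure D3:**
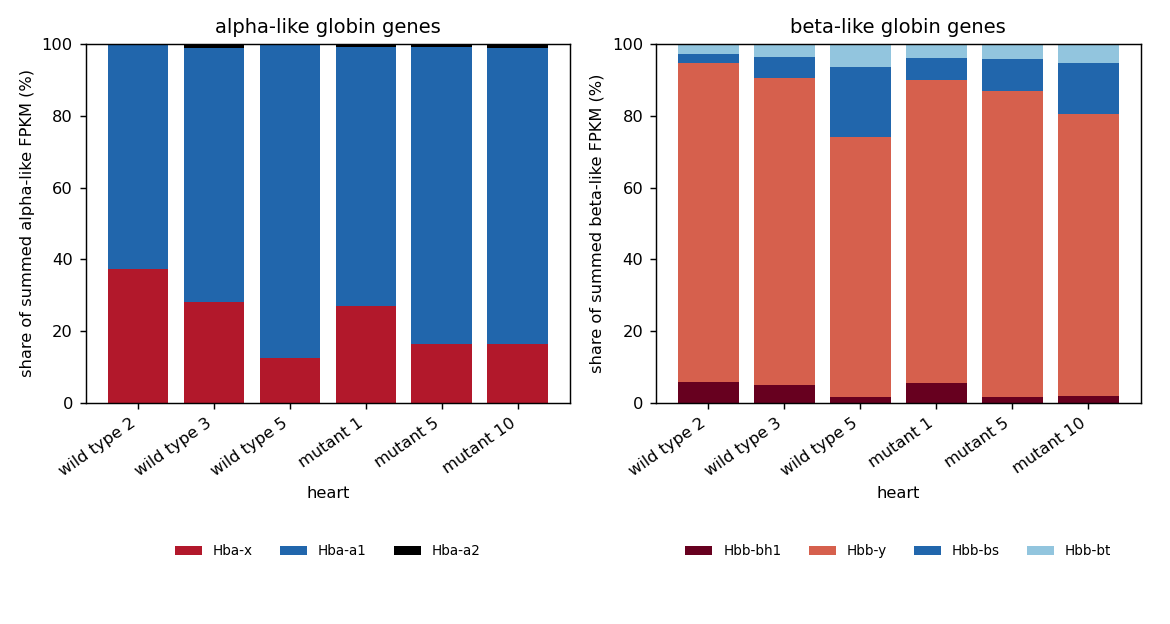
Share (%) of each gene in the summed FPKM of the alpha-like genes (left) and of the beta-like genes (right), with 1 stacked bar per heart. Hba-x ranges from 12.6% to 37.4% of the alpha-like sum, and Hbb-bs from 2.68% to 19.6% of the beta-like sum. Wild type replicates 2 and 5 hold the extremes of both.

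Wild type replicate 2 held the most embryonic make-up, with Hba-x at 37.4% of the alpha-like sum and Hbb-bs with Hbb-bt at 2.68% and 2.72% of the beta-like sum. Wild type replicate 5 held the least, with Hba-x at 12.6%, Hbb-bs at 19.6% and Hbb-bt at 6.47%. Both are of 1 genotype, and wild type replicate 5 is also the heart with the strongest trend by gene length. The 7 globin genes have lengths of 524 to 703 bases in the deposited FPKM. The part of that trend in the level of these short transcripts was not tested.

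The summed embryonic over adult-type ratio of all 7 globin genes was 3.27, 2.11 and 1.18 in wild type and 2.04, 1.61 and 1.20 in mutant hearts, in the same order. The alpha-like over the beta-like sum was 0.460, 0.567 and 0.474 in wild type and 0.573, 0.559 and 0.675 in mutant hearts. The mutant hearts lay toward the upper end, with mutant replicate 5 below wild type replicate 3. The groups overlapped for each of these sums, to which no test was applied.

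Pairs of single genes were tested with an exact permutation test, two-sided, in which 3 hearts against 3 cannot give a p below 0.1. Over the 10 pairs compared, the p lay between 0.2 and 0.8 in this exact test, and each had an adjusted p of 0.8. Hbb-y over Hbb-bs had a log2 ratio of 3.59 ± 1.59 in wild type and 3.16 ± 0.67 in mutant hearts (SD, n = 3 each). Hba-x over Hba-a1 had −1.63 ± 1.05 and −2.03 ± 0.54. For the pair with the smallest p of 0.2 in the exact test, Hba-x over Hba-a2, the values were 7.19 ± 2.14 and 4.32 ± 0.51.

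The embryonic beta-like genes were also compared with each other. Hbb-y over Hbb-bh1 was 14.9, 17.3 and 46.9 in wild type replicates 2, 3 and 5 and 14.9, 52.7 and 44.1 in mutant replicates 1, 5 and 10. Mutant replicate 5 had the highest value, although its adult-type transcripts were not high. It had 201.1 FPKM of Hbb-bh1, the lowest of all hearts, against 10604 FPKM of Hbb-y. Hbb-bh1 over Hbb-bs ran from 2.22 in wild type replicate 2 to 0.0789 in wild type replicate 5, a 28.1-fold difference within 1 genotype.

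**Figure D4:**
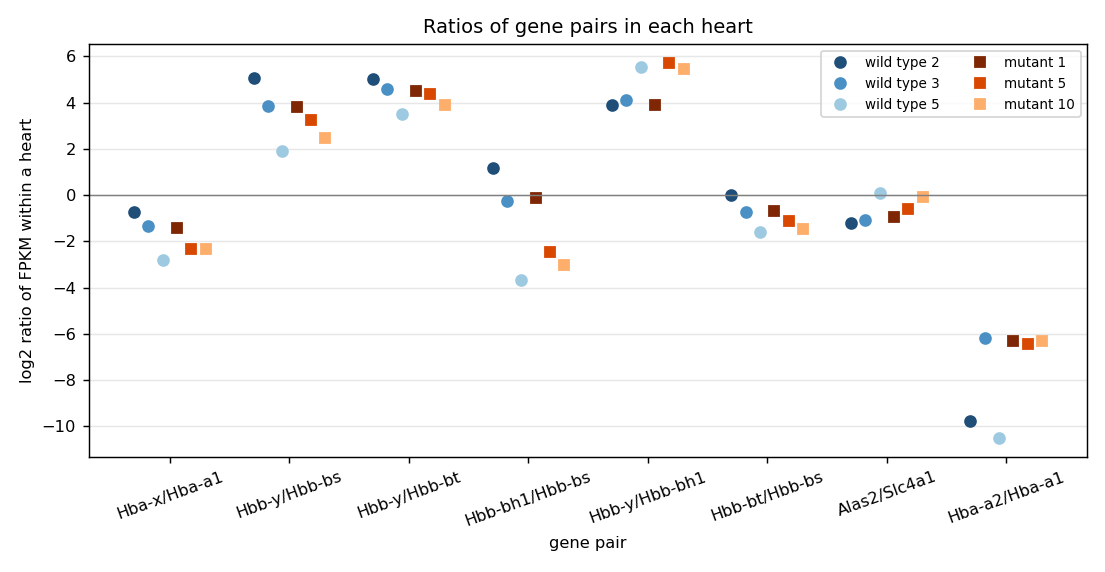
Log2 ratio of FPKM within a heart (y axis) for 8 pairs of genes (x axis), with circles for the 3 wild type and squares for the 3 mutant hearts. For Hbb-y over Hbb-bs the wild type hearts span the mutant hearts, and for Hba-a2 over Hba-a1 wild type replicates 2 and 5 stand far below the other 4 hearts.

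The copies of the adult-type genes did not keep a fixed ratio. Hbb-bt over Hbb-bs was 1.01, 0.597 and 0.331 in wild type replicates 2, 3 and 5, and 0.618, 0.458 and 0.364 in mutant replicates 1, 5 and 10. The ratio was lowest in the hearts with most adult-type beta transcripts. Hba-a2 amounted to 0.115% and 0.0691% of Hba-a1 in wild type replicates 2 and 5, while it amounted to 1.38% in wild type replicate 3 and 1.25%, 1.15% and 1.26% in mutant replicates 1, 5 and 10. Hba-a1 itself was the lowest of all hearts in wild type replicate 2 and among the highest in wild type replicate 5. The cause of the low share of Hba-a2 in these hearts was not tested. The alleles each embryo carried at these loci were not given in the sources used here, and the reference is that of C57BL/6J.

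Alas2 over Slc4a1 was 0.436, 0.468 and 1.06 in wild type replicates 2, 3 and 5 and 0.513, 0.662 and 0.932 in mutant replicates 1, 5 and 10. It was highest in the pair of hearts with most Hbb-y. Only its differences between hearts can be read. For Slc4a1 the deposited FPKM uses 1194 bases, the mean over its annotated transcripts, while its longest coding transcript has 4545.

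Other genes of the red cell were taken from 6 lists with 84 members, of which 77 were tested. Of these, 24 were higher and 53 lower in the mutant hearts, with a median log2 fold change of −0.10, against −0.0010 for all genes tested (8699 higher and 8774 lower). After adjustment edgeR called 0 of them and DESeq2 called 0, while at an unadjusted p of 0.05 edgeR passed 0 of those higher and 1 of those lower. The groups did not overlap for 2 of them (2.60%), below the 11.2% of all genes.

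Among 14 genes of heme synthesis and transport, 2 were higher and 12 lower, and 0 had an unadjusted p under 0.05. Alad, the enzyme of the second step, had 73.2, 126 and 74.3 CPM in wild type replicates 2, 3 and 5 and 33.8, 30.5 and 83.8 CPM in mutant replicates 1, 5 and 10, with a log2 fold change of −0.88 whose standard error was 0.39 (adjusted p = 0.891 in edgeR). Slc25a37, the mitochondrial iron importer of red cells, had −0.48 (standard error 0.23, adjusted p = 0.915).

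Of 19 genes of the membrane and its blood groups, 4 were higher and 15 lower, with a median log2 fold change of −0.31. This median was −0.07 without mutant replicate 5 and −0.53 without mutant replicate 10. Ank1, the ankyrin that ties the membrane to the spectrin skeleton, had 37.8, 40.1 and 32.7 CPM in the wild type hearts, against 29.5, 27.7 and 31.8 CPM in the mutant ones, and its groups did not overlap. Its log2 fold change was −0.31 (standard error 0.11, unadjusted p = 0.0243 and adjusted p = 0.774 from edgeR). Kel, a blood group antigen, had −0.68 (standard error 0.35, adjusted p = 0.937).

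Of 15 transcription factors of the lineage, 5 were higher and 10 lower, with a median of −0.11. Klf1, an activator of adult-type beta globin, had 4.65, 11.1 and 2.34 CPM in the wild type hearts, against 3.87, 1.72 and 3.48 CPM in the mutant ones (log2 fold change −1.002, standard error 0.54, adjusted p = 0.939). Without wild type replicate 3 this value was −0.21. Klf1 was highest in wild type replicate 3, the heart with most hepatocyte transcripts, and lowest among wild type hearts in replicate 5, which held most adult-type beta transcripts. Myb, a factor of definitive progenitors, was at 1.47, 1.34 and 0.977 CPM in the wild type hearts, against 0.866, 0.935 and 0.835 CPM in the mutant ones, with groups that did not overlap (log2 fold change −0.53, standard error 0.28, adjusted p = 0.939).

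Of 10 genes of iron uptake and erythropoietin signaling, 7 were higher and 3 lower (median 0.05), and the smallest p were those of the receptors Kit (log2 fold change 0.29, standard error 0.15) and Epor (−0.32, standard error 0.22). Of 16 tested genes of enzymes and maturation, 5 were higher and 11 lower (median −0.07). Trim10 had −0.34 (standard error 0.28), and Pklr, the pyruvate kinase of both liver and red cells, had −1.05 (standard error 0.91). Pklr turned to 1.15 without wild type replicate 3, the heart with most hepatocyte transcripts. The part of liver RNA in this value was not tested. Of the minor globin genes 3 were tested, with log2 fold changes of 0.84 in Hbb-bh2, −0.27 in Hbq1b and −0.03 in Hbb-bh0, while Hbb-bh3 had 0 counts in every heart, which allows up to 3 counts in each. With 1 heart left out, the medians of the transcription factors, of the iron genes, of the enzymes and of the minor globin genes changed sign. The smallest adjusted p over the 77 genes was 0.774 in edgeR's quasi-likelihood test.

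The hearts in which these genes were highest were not those of the globin genes alone. Of the 77, 27 (35.1%) were highest in mutant replicate 10, where 14.9% of all genes tested were highest, and 24 (31.2%) in wild type replicate 3, where 12.3% were. In wild type replicate 5, 16 (20.8%) were highest and 24 (31.2%) lowest, against 29.3% and 31.1% of all genes. In mutant replicate 5, 39 (50.6%) were lowest, against 15.7% of all genes. The part of this heart's trend by gene length in that share was not tested. The following genes were chosen after their values were seen. Bpgm, which makes the regulator of oxygen release, had 133, 125 and 141 CPM in wild type replicates 2, 3 and 5 and 108, 74.6 and 227 CPM in mutant replicates 1, 5 and 10. Hemgn, a nuclear protein of erythroid precursors, had its high value of 12.8 CPM in wild type replicate 3, against 1.05 CPM in wild type replicate 5 and 3.04 CPM in mutant replicate 10.

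Markers of other cells were set beside these values. Hepatocytes mark the fetal liver, which also makes definitive red cells. Alb had 0, 303 and 6.57 CPM in wild type replicates 2, 3 and 5 and 0.885, 0.0382 and 0.179 CPM in mutant replicates 1, 5 and 10. All 10 tested hepatocyte genes were lower in the mutant, 5 with an unadjusted p under 0.05 in edgeR, and their groups overlapped. Over all genes tested, 2.59% were lower at that p. Their median log2 fold change of −3.75 turned to 0.17 without wild type replicate 3. Wild type replicate 3 held most Alb, and it was also the highest heart for Klf1 and for 24 of the 77 red cell genes. Hba-a1, Hbb-bs and Hbb-bt were highest in wild type replicate 5 and mutant replicate 10. Without wild type replicate 3, 0 of the 9 members passed, and the log2 fold change was 0.06 for Hba-a1 and −0.74 for Hbb-bs. The part of liver RNA in these results was not tested.

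Macrophage genes summed to 104 to 127 CPM in wild type and 163 to 183 CPM in the mutant hearts. Of 13 tested, 12 were higher, 11 of them with an unadjusted p under 0.05 in edgeR. Over all genes tested, 3.14% were higher at that p. After adjustment edgeR called 0 macrophage genes and DESeq2 called 5, where DESeq2 called 0.690% of all genes with an adjusted p. The groups did not overlap for 10 of the macrophage genes, against 11.2% of all genes tested. Vsig4, a macrophage complement receptor, had 0.0355, 0.0522 and 0 CPM in the wild type hearts, against 0.654, 0.458 and 0.755 CPM in the mutant ones. These values rest on few counts. Megakaryocyte and platelet genes summed to 65.8 to 84.4 CPM and 85.2 to 123 CPM, and 11 of 12 were higher, 7 with an unadjusted p under 0.05, and DESeq2 called 2. Their groups did not overlap for 7, beside the same shares of all genes. Ppbp, a platelet chemokine, had 2.61, 1.17 and 1.36 CPM in the wild type hearts, against 4.33, 8.55 and 7.43 CPM in the mutant ones. Genes of neutrophils and mast cells summed to 0.923 to 5.86 CPM and 6.46 to 9.12 CPM, and all 5 tested were higher, 0 with an unadjusted p under 0.05. The part of these cells in the globin values was not tested. Endothelial genes summed to 655 to 966 CPM in wild type and 850 to 1077 CPM in the mutant ones, with all 6 higher and 1 with an unadjusted p under 0.05. Of the 10 cardiomyocyte genes, 6 were higher and 4 lower.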

How the data were processed

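RNA-seq of 6 whole E13.5 mouse hearts was analysed, 3 mutant and 3 wild type. The authors sequenced total RNA and, after trimming, mapped the reads to mm10 with STAR and kept those with a unique position. The methods name featureCounts, and the submitters' processing notes list HTSeq and DESeq2. The strand setting was not given in the sources used here. The deposited counts are whole reads per gene. The deposited FPKM are these counts per gene length and total count, with a largest relative deviation of 7.08e-14. The authors' table of group means of FPKM was not used.

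Counts were scaled with TMM, filtered with filterByExpr (minimum count 10, minimum total 15) and tested with edgeR 4.0.16 (quasi-likelihood, two-sided, Benjamini-Hochberg over 17473 genes, adjusted p under 0.05) in R 4.3.3. DESeq2 1.42.0 and limma 3.58.1 served as alternatives, beside other scalings, filters, copies summed, Xist as a covariate and each heart left out. Xist stood at 350, 0.209 and 0.0227 CPM in wild type replicates 2, 3 and 5. In mutant replicates 1, 5 and 10 it stood at 0.0770, 391 and 299 CPM, so it was not balanced between the groups. Pair ratios were tested by exact permutation with scipy 1.17.1. The fit was tested on simulated data. Total counts were 44244665 or more per heart, and the precision of each comparison rests on 3 hearts per group.

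The members, lists, pairs and tests were chosen with earlier results of these data known. Named genes were all 9 members, the 2 genes with the smallest p in each other red cell list, 1 per cell type list, and the 10 genes most like Hbb-bs and Hbb-y by Pearson's r. Other named genes are said to be chosen after their values were seen. Promoters came from RefSeq (GRCm38.p6, 7 of 9 members matched), and positions and coding sequences from GENCODE M21 (GRCm38).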

Additional observations from a re-analysis of the deposited data

How the results depend on the processing

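Of the 9 members and of the other red cell genes, 0 passed the threshold under every alternative run. Over all genes, 0 passed in edgeR, 133 in DESeq2, 34 with no filter on low counts, and 0 to 44 with 1 heart left out (44 without wild type replicate 5). The log2 fold change of Hbb-bs turned to 0.22 with limma-voom, 0.21 with limma on log2(FPKM + 1) and on log2(FPKM + 0.1), and 0.58 with Xist as a covariate. Under that covariate Hbb-bt gave 0.10 and Mb 0.0115. Alas2 gave −0.0626 with limma-voom, −0.0865 on log2(FPKM + 1) and −0.0901 on log2(FPKM + 0.1). The causes were not tested.

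With 1 heart left out, log2 fold changes ran from −0.62 to 0.33 in Hba-x, −0.76 to 0.36 in Hbb-y, −0.69 to 1.01 in Hba-a1, −1.67 to 1.86 in Hbb-bs, −1.22 to 1.03 in Hbb-bt, −0.78 to 0.57 in Alas2, −0.65 to 0.19 in Slc4a1, −0.75 to 0.22 in Hbq1b, −1.54 to 1.15 in Pklr and −0.27 to 0.33 in Mb. Those of Hbb-bh1 (−0.81 to −0.07), Hba-a2 (0.95 to 4.05) and Klf1 (−1.38 to −0.21) kept their sign. The differences in log2 ratio ran from −0.99 to 0.0320 for Hba-x over Hba-a1, −2.30 to 0.11 for Hbb-bh1 over Hbb-bs, −1.28 to 0.30 for Hbb-y over Hbb-bs, −1.57 to 0.0281 for Hbb-bh1 over Hbb-bt, −0.54 to 0.23 for Hbb-y over Hbb-bt, −0.73 to 0.0777 for Hbb-bt over Hbb-bs and −0.0500 to 0.59 for Alas2 over Slc4a1. For the summed ratios they ran from −0.998 to 0.02 (alpha-like) and −1.03 to 0.28 (beta-like). No paired analysis was possible because the labels give no litter or pairing of the hearts.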

Other observations

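The genes whose log2 CPM followed Hbb-y and Hbb-bs most closely over the 6 hearts were taken among 14147 genes, as a description with no test. Those most like Hbb-y had Pearson's r of 0.974 to 0.988, and the first 4 were Pdzk1ip1, Ube2l6, Mkrn1 and Fth1, the iron-storing ferritin heavy chain. Without wild type replicate 5 and mutant replicate 10, r ran from 0.943 in Pdzk1ip1 to 0.380 in Rpl29. Those most like Hbb-bs had r of 0.981 to 0.992, led by Hn1, Tmco3, Gtf2e2 and Tle6, and 0 of these 10 were in the red cell lists. The points are the same 6 libraries, with their depth and gene-length trend, and the part of these in the values was not tested.

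Globins made outside red cells were also counted. Mb, the myoglobin of heart muscle, had 185, 176 and 362 CPM in wild type replicates 2, 3 and 5 and 212, 186 and 284 CPM in mutant replicates 1, 5 and 10, with the groups overlapping (log2 fold change −0.09, adjusted p = 0.990 in edgeR). Cygb, cytoglobin, had 2.61, 4.24 and 3.77 CPM in wild type and 1.64, 2.14 and 2.24 CPM in mutant hearts. Its groups did not overlap, and its log2 fold change of −0.82 (standard error 0.26) had an adjusted p of 0.679 in edgeR.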
